A study of Homo sapiens with 12 samples.

Results

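The RNA levels of the lysine demethylases KDM1A and KDM1B and of the CoREST complex were followed through 5 siRNA knockdowns. The 9 genes were taken by name: KDM1A, KDM1B, RCOR1, RCOR2, RCOR3, HMG20B, PHF21A, REST and ZMYM2. Each matched 1 Ensembl identifier among the 58662 that were matched to the annotation, and all 9 were among the 12830 expressed protein coding genes that were tested.

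The study examined how the arginine methyltransferase CARM1 and the NuRD chromatin remodeling complex act together on transcription. RNA-seq was made from cells that the sample titles give as HEK293T, a human embryonic kidney line that carries the SV40 large T antigen. The paper's text gives them as HEK293. Each of 6 groups held 2 libraries: siCTL, which the labels give as WT, and siCARM1, siCHD4, siHDAC2, siGATAD2A and siKDM1A, which the labels give as knock down of the named gene. All cells, controls included, were of the 1 line and were transfected with an siRNA, and no drug treatment or time point is given in the labels. CHD4 is the remodeling ATPase of NuRD, HDAC2 one of its histone deacetylases and GATAD2A a scaffold that joins its modules, while KDM1A has been found with both NuRD and CoREST. Whether the replicates came from separate cultures is not given, so the p-values measure the spread between these libraries, which may be technical.

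KDM1A, also called LSD1, is a flavin-dependent enzyme that takes methyl groups off a lysine of the histone H3 tail. On nucleosomes it works as a part of CoREST, in which an RCOR protein bridges the demethylase to the deacetylases HDAC1 and HDAC2, so that a promoter loses acetyl and methyl marks together. HMG20B (BRAF35) and PHF21A (BHC80) bind DNA and unmethylated histone tails, ZMYM2 is a zinc finger subunit, and the repressor REST brings the complex to neuronal genes in cells that are not neurons. KDM1B (LSD2) is the second flavin-dependent lysine demethylase and works outside CoREST, on the bodies of transcribed genes.

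Libraries held 19308315 to 28648656 counts on genes. The targeted RNA stood at 16.6% of siCTL in siKDM1A, 19.3% in siCARM1, 19.7% in siHDAC2 and 29.8% in siGATAD2A, but at 68.9% in siCHD4. CHD4 shares 46.9% of its exonic bases with another annotated gene on the same strand, where counts are ambiguous and left out, so its value rests on the rest of the gene. In siCHD4 48.8% of all tested genes were called, the most of the 5 comparisons. Of 9 genes chosen as markers of HEK293 cells, 7 exceeded an FPKM of 0.5 in some library, and PAX2 and NEFM did not. Of 10 measured markers of other cell types, 2 exceeded that level, COL1A1 among them. The summed FPKM of this list was 9.39 to 15.1 over the 12 libraries against 403 to 634 for the HEK293 list. In siCTL KRT8 (166 FPKM), KRT18 (176) and VIM (72.7) made up most of the HEK293 sum, so the sums alone do not identify the cells. Within the lists VIM was called in all 5 comparisons (-0.64 in siGATAD2A and 0.40 to 0.87 in the others), NES was higher by 1.05 in siKDM1A, and COL1A1 was lower in 4 (-0.47 to -0.35); their part in the results was not tested. Libraries of a group correlated with r of at least 0.995 across genes.

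Levels between genes depend on the length they are divided by. FPKM, the count divided by exon length and by the library's total on genes, was computed with the union of all annotated exons of a gene. For KDM1A that union is 18325 bases while its canonical transcript has 3085, because the annotation holds transcripts with retained introns. PHF21A has 25046 bases of union exon and a canonical transcript of 7451. Both scales are therefore given, and neither knows which isoforms the cells made.

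Among the 9 genes in siCTL, HMG20B and KDM1A had the highest levels per canonical transcript length. HMG20B stood at 60.0 ± 1.2 FPKM (SD, n = 2) and KDM1A at 54.0 ± 1.7, which is above 91.8% and 90.4% of the tested genes on that scale. REST (14.0 ± 0.11), RCOR1 (13.4 ± 0.36) and ZMYM2 (12.5 ± 0.33) formed a middle group. KDM1B (6.79 ± 0.32), PHF21A (6.06 ± 0.13), RCOR3 (5.94 ± 0.25) and RCOR2 (4.45 ± 0.44) were lowest. With union exon lengths HMG20B stayed first at 24.7 FPKM, KDM1A at 9.09 came after RCOR1 at 12.4 and REST at 10.9, and PHF21A was last at 1.80. The place of KDM1A among the 9 thus rests on the length used, while the changes between groups below compare a gene with itself and do not.

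The study's primer table gives an RT-qPCR primer pair for KDM1A mRNA. The pair is shown because it marks the stretch of the KDM1A message that it would amplify. On GRCh37 the forward primer spans the junction of exons 19 and 20 of the 21 exons of the canonical transcript, on the plus strand of chr1:23408066-23408731 with the intron between, and its bases in exon 20 are in capitals. The reverse primer lies in exon 21, at chr1:23409771-23409790, and reads the minus strand. The product on the spliced message is 267 bases. No RT-qPCR value was used here.
KDM1A forward: gCCCAAAGAAACTGTGGTGT
KDM1A reverse: cccaaaaactggtctgcaat

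Few of these genes changed by the fold minimum or more against siCTL. A gene was called where the fold was 1.2 or more and the p from edgeR's quasi-likelihood test, after Benjamini-Hochberg adjustment within the comparison, did not exceed 0.05. Of the 45 values of 9 genes in 5 knockdowns against siCTL, 5 were called (11.1%), 4 lower and 1 higher, while 31.5% of all values of the tested genes were called, 15.6% lower and 15.9% higher. The calls fell on KDM1A and RCOR3 in siKDM1A, on KDM1B in siCHD4 and in siGATAD2A, and on RCOR2 in siCHD4. RCOR1, HMG20B, PHF21A, REST and ZMYM2 were called in none of the 5 comparisons. The 5 comparisons share the siCTL libraries. In bulk RNA, fewer cells that express a gene and less RNA per cell cannot be told apart.

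By knockdown, edgeR called 0 of 9 genes in siCARM1, where 29.4% of all tested genes were called. At an unadjusted p under 0.05 there were 5, and DESeq2 called 0. In siHDAC2 0 of 9 were called against 19.6% of all tested genes, with 4 at an unadjusted p under 0.05 and 0 by DESeq2. The shares of all tested genes at an unadjusted p and by DESeq2 are not given here, so nothing is read from those counts. In siCHD4 2 of 9 were called against 48.8%, in siGATAD2A 1 of 9 against 33.9%, and in siKDM1A 2 of 9 against 25.7%, 1 of them the targeted gene. Without the fold minimum 20 of the 45 values had an adjusted p of 0.05 or less (44.4%), against 48.3% of all values of the tested genes. The median log2 fold change of the 9 genes lay between -0.02 and 0.06 in the 5 comparisons, beside -0.002 to 0.005 for all tested genes.

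**Figure D1:**
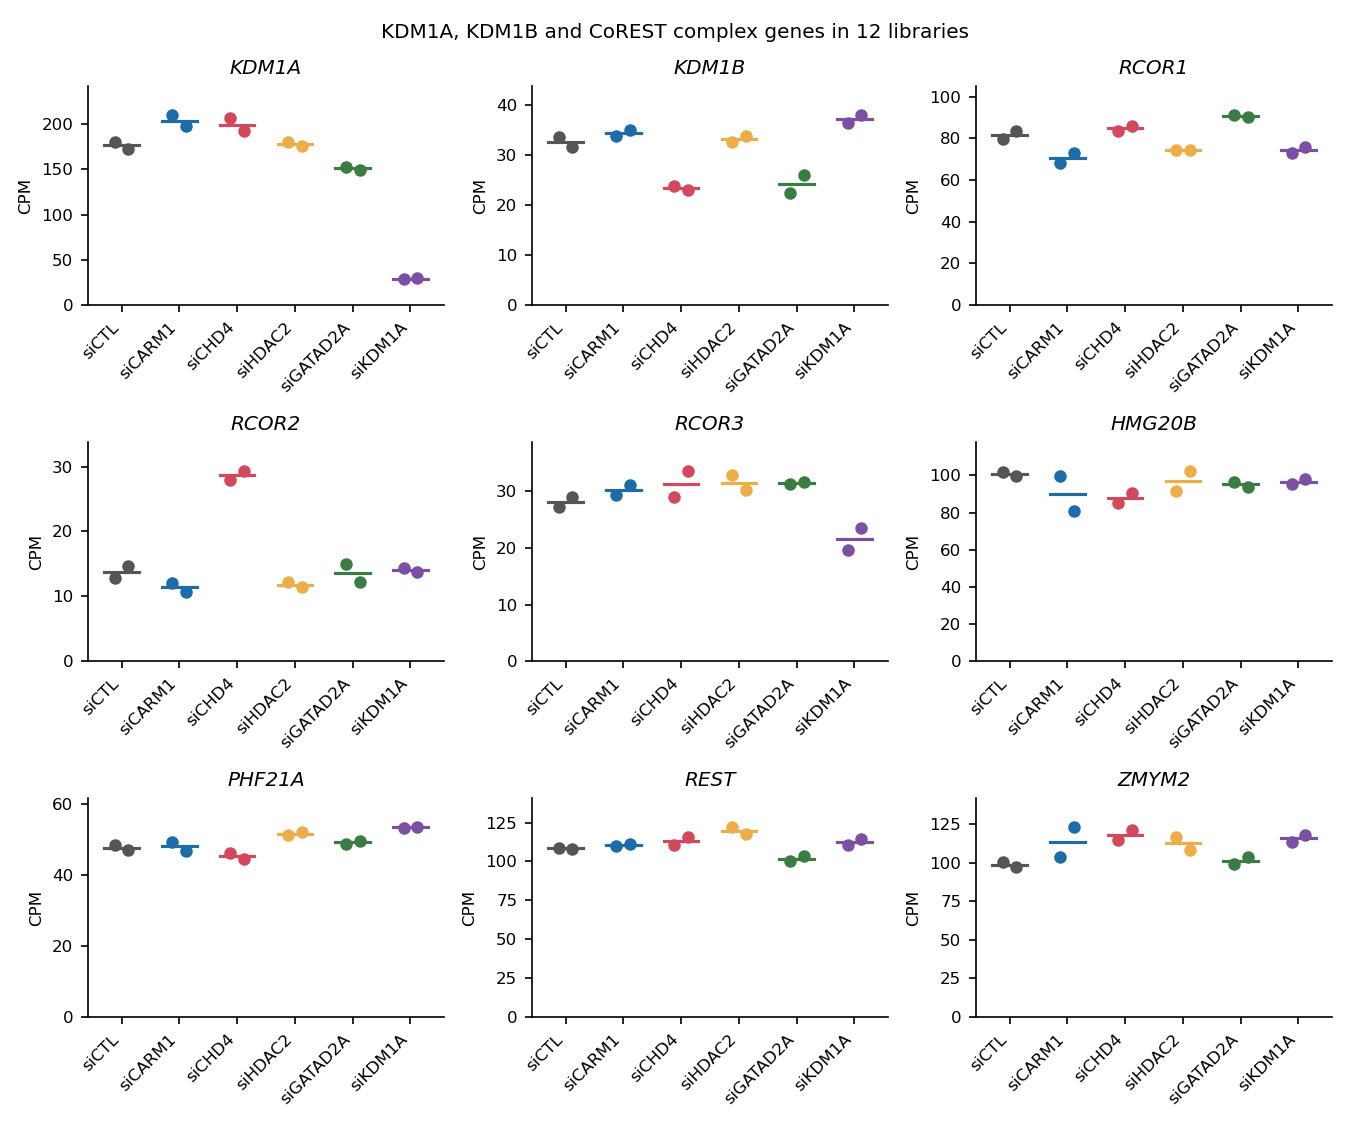
CPM (the count of a gene relative to the library total after TMM scaling) of each gene in the 12 libraries, with 1 point per library and a bar at the mean of each group of 2. The siKDM1A points of KDM1A at 28.9 and 29.7 CPM, the siCHD4 points of RCOR2 at 27.9 and 29.4 CPM, and the lower siCHD4 and siGATAD2A points of KDM1B stand away from the other groups.

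KDM1A, the target of siKDM1A, was lower in that group than in any other. It lies on the plus strand at chr1:23345936-23410182 of GRCh37. Its CPM was 180 and 173 in the siCTL libraries, 210.3 and 197 in siCARM1, 206 and 192 in siCHD4, 179.7 and 175 in siHDAC2, 153 and 149 in siGATAD2A, and 28.9 and 29.7 in siKDM1A. No library of another group came near the siKDM1A pair. In siKDM1A it changed by -2.59 on the log2 scale (SE 0.056, adjusted p = 1.1e-25), which left 16.6% of the siCTL level.

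KDM1A also differed, by less than the fold minimum, in 3 knockdowns of other genes. It was higher in siCARM1 by 0.21 on the log2 scale (adjusted p = 4.1e-04) and in siCHD4 by 0.18 (adjusted p = 0.0014), and lower in siGATAD2A, where it fell by 0.22 (adjusted p = 2.0e-04). In each of these the 2 knockdown libraries lay outside the siCTL pair. In siHDAC2 the log2 fold change was 0.01, with a 95% interval of -0.09 to 0.11. The order of group means was siKDM1A, siGATAD2A, siCTL, siHDAC2, siCHD4 and siCARM1 from low to high. In that order siCTL and siHDAC2 (adjusted p = 0.89) and siCHD4 and siCARM1 (adjusted p = 0.55) did not differ beyond their spread in edgeR's test. Between knockdowns the siGATAD2A level was below that in siCARM1 by 0.43 and below that in siCHD4 by 0.40, both called.

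Reads on the strand opposite to KDM1A numbered 65 and 72 in siKDM1A and 79 and 79 in siCTL, a far smaller difference than on the counted strand. Their share of both strands was therefore 2.35% and 2.06% in siCTL and 9.31% and 9.23% in siKDM1A. The highest numbers, 211 and 146, were in siGATAD2A, where they were 5.31% and 4.16%. No annotated gene shares exonic bases with KDM1A on the counted strand or on the other.

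KDM1B, the other demethylase of the family, was lower in siCHD4 and siGATAD2A. It lies on the plus strand at chr6:18155560-18224085. Its CPM was 33.6 and 31.6 in siCTL, 33.8 and 35.0 in siCARM1, 23.8 and 23.0 in siCHD4, 32.7 and 33.8 in siHDAC2, 22.3 and 26.1 in siGATAD2A, and 36.5 and 38.1 in siKDM1A. The 4 libraries of siCHD4 and siGATAD2A were the lowest of the 12 and did not overlap with any other group. Its log2 fold change was -0.48 in siCHD4 (SE 0.080, adjusted p = 4.8e-06), to 71.9% of siCTL, and -0.43 in siGATAD2A (SE 0.079, adjusted p = 3.2e-05), to 74.1%. The siCHD4 and siGATAD2A levels differed by -0.04 with a 95% interval of -0.21 to 0.12.

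In siKDM1A, KDM1B was at 115% of siCTL. That log2 fold change of 0.20 (95% interval 0.04 to 0.35, adjusted p = 0.036) passed the test but not the fold minimum, and both siKDM1A libraries were the highest of the 12. KDM1B was lower in siCHD4 than in siCARM1, siHDAC2 and siKDM1A by 0.51 to 0.67, and lower in siGATAD2A than in the same 3 groups by 0.46 to 0.63, all 6 differences called. In order of mean, siCTL, siHDAC2 and siCARM1 were neighbours whose differences were not called, at 0.03 between siHDAC2 and siCTL and 0.05 between siCARM1 and siHDAC2.

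Of the 6 groups, siKDM1A had the highest share of KDM1B in the demethylase RNA. By canonical transcript length KDM1B was 11.2 ± 0.15% (SD, n = 2) of the summed FPKM of KDM1A and KDM1B in siCTL and 46.4 ± 0.30% in siKDM1A, and the sum went from 60.8 ± 2.1 to 16.7 ± 0.45 FPKM. With union exon lengths the share of KDM1B was 37.6 ± 0.36% in siCTL and 80.6 ± 0.19% in siKDM1A. These shares carry the fall of KDM1A, the targeted gene, and are given as a description. Outside siKDM1A the share was lowest in siCHD4, 7.40 ± 0.17% by canonical length and 27.7 ± 0.48% by union length.

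RCOR2 had the only called increase of the 9 genes against siCTL. RCOR2 is an RCOR scaffold known from embryonic and neural progenitor cells, and it lies on the minus strand at chr11:63678702-63684636. Its CPM was 12.7 and 14.7 in siCTL, 12.1 and 10.7 in siCARM1, 27.9 and 29.4 in siCHD4, 12.2 and 11.4 in siHDAC2, 14.9 and 12.3 in siGATAD2A, and 14.4 and 13.8 in siKDM1A. Both siCHD4 libraries were far above the other 10, which spanned 10.7 to 14.9 CPM. Against siCTL the siCHD4 value was 1.06 on the log2 scale (SE 0.10, adjusted p = 1.7e-10), or 208% of siCTL.

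The siCHD4 level of RCOR2 was also above that in each other knockdown, by 1.02 over siKDM1A, 1.07 over siGATAD2A, 1.29 over siHDAC2 and 1.32 over siCARM1, all called. Next to these, RCOR2 was lower in siCARM1 than in siKDM1A by 0.30 (adjusted p = 0.036), a call between 2 groups that were each not called against siCTL. The siCARM1 value against siCTL was -0.26 with an adjusted p of 0.056. RCOR2 has the fewest counts of the 9, 225 to 690 per library, and of its reads on both strands 4.10% to 12.3% lay on the opposite one. No annotated gene shares its exonic bases there.

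RCOR3, a scaffold that binds KDM1A but is described as a weak activator of its demethylation on nucleosomes, was lower in siKDM1A. It lies on the plus strand at chr1:211431719-211489727. Its CPM was 27.2 and 29.1 in siCTL, 29.4 and 31.1 in siCARM1, 29.0 and 33.7 in siCHD4, 32.8 and 30.3 in siHDAC2, 31.4 and 31.7 in siGATAD2A, and 19.7 and 23.6 in siKDM1A. The siKDM1A pair was below all 10 other libraries. Its log2 fold change was -0.38 (SE 0.090, adjusted p = 0.0010), to 76.9% of siCTL, and the level was below that in the 4 other knockdowns by 0.48 to 0.54, all called.

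The call on RCOR3 was lost without the first siKDM1A library, when it fell by 0.26 with an adjusted p of 0.046 from edgeR and a fold under the minimum. In the other 4 knockdowns the log2 fold change of RCOR3 was 0.10 to 0.16, none called, and no difference among those 4 was called either.

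RCOR1, the scaffold after which CoREST was named, moved by less than the fold minimum against siCTL, in both directions. It lies on the plus strand at chr14:103058986-103196898. Its CPM was 79.8 and 83.4 in siCTL, 68.1 and 72.9 in siCARM1, 83.7 and 86.1 in siCHD4, 74.2 and 74.5 in siHDAC2, 91.4 and 90.2 in siGATAD2A, and 73.0 and 75.7 in siKDM1A. The siCARM1, siHDAC2 and siKDM1A libraries all lay below the siCTL pair, and the siCHD4 and siGATAD2A libraries above it. The log2 fold change was -0.21 in siCARM1 (adjusted p = 0.0015), -0.13 in siHDAC2 (adjusted p = 0.049), -0.13 in siKDM1A (adjusted p = 0.042), 0.06 in siCHD4 (adjusted p = 0.35) and 0.15 in siGATAD2A (adjusted p = 0.015).

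Set against each other, 4 pairs of knockdowns differed in RCOR1 past both thresholds. The siGATAD2A level was above that in siCARM1 by 0.37, above siHDAC2 by 0.29 and above siKDM1A by 0.29, and the siCHD4 level was above that in siCARM1 by 0.27.

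**Figure D2:**
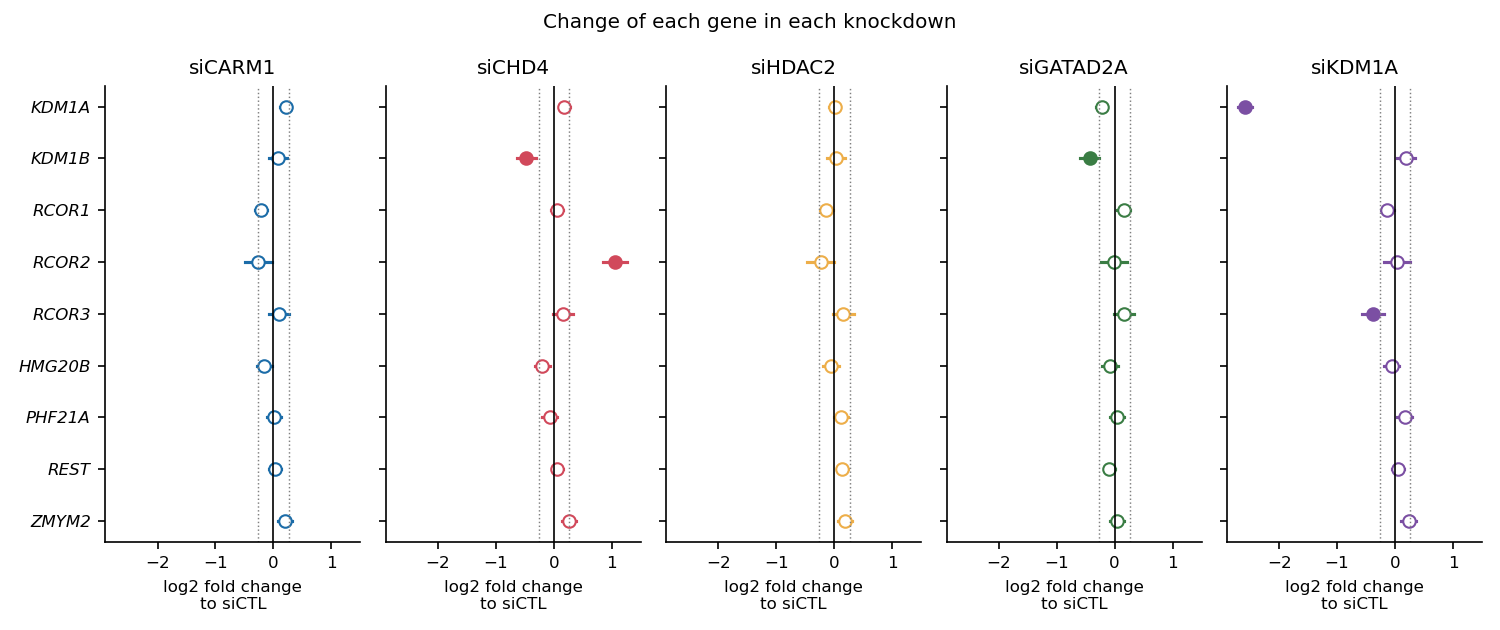
Log2 fold change to siCTL of each gene in each knockdown, from edgeR with 2 libraries per group, with lines for the 95% interval and dotted lines at a fold of 1.2 in either direction. Filled points were called, and these are KDM1A and RCOR3 in siKDM1A, RCOR2 and KDM1B in siCHD4, and KDM1B in siGATAD2A.

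The makeup of the RCOR family by RNA therefore differed most in siCHD4. By canonical transcript length RCOR2 was 18.7 ± 1.0% of the summed FPKM of the 3 scaffolds in siCTL and 31.1 ± 0.24% in siCHD4. RCOR1 was 56.3 ± 0.98% in siCTL and 46.8 ± 1.1% in siCHD4, and RCOR3 25.0 ± 0.04% and 22.1 ± 1.4%. The sum of the 3 was 23.8 ± 1.1 FPKM in siCTL and 29.0 ± 1.3 in siCHD4. In the other 4 knockdowns the share of RCOR2 was 16.8% to 21.4%. With union exon lengths the share of RCOR2 went from 21.7 ± 1.2% to 35.4 ± 0.02%. With 2 libraries against 2, an exact permutation test cannot give a p below 0.333, so shares were not tested.

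KDM1A RNA was also set against the RNA of the scaffolds. The FPKM of KDM1A divided by the summed FPKM of the RCOR genes, both by canonical length, was 2.27 ± 0.17 in siCTL and 0.420 ± 0.007 in siKDM1A. It was highest in siCARM1 at 2.88 ± 0.20, then 2.40 ± 0.02 in siHDAC2, 2.05 ± 0.19 in siCHD4 and 1.78 ± 0.01 in siGATAD2A. It is a ratio of RNA levels, and protein was not measured here.

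**Figure D3:**
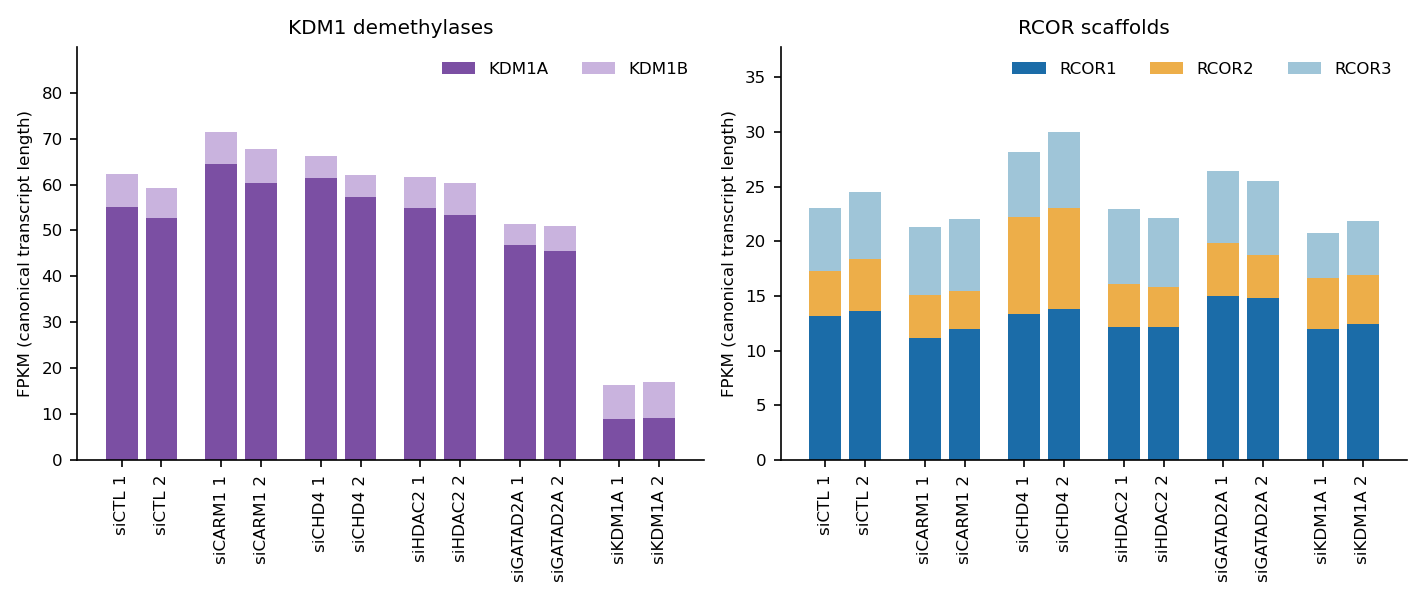
Stacked FPKM by canonical transcript length of KDM1A and KDM1B (left) and of RCOR1, RCOR2 and RCOR3 (right), with 1 bar per library. The siKDM1A bars on the left sum to a mean of 16.7 FPKM against 60.8 in siCTL with KDM1B as 46.4% of them, and on the right RCOR2 makes up 31.1% of the siCHD4 bars against 18.7% of the siCTL bars.

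The 4 other subunits and recruiters were not called against siCTL, though some of their 95% intervals reached past the fold minimum. HMG20B, the high-mobility-group subunit on the plus strand at chr19:3572775-3579086, had CPM of 102 and 99.6 in siCTL, 99.5 and 80.7 in siCARM1, 85.3 and 90.5 in siCHD4, 91.4 and 103 in siHDAC2, 96.7 and 93.9 in siGATAD2A, and 95.1 and 98.1 in siKDM1A. Its siCARM1 pair was far apart, and the F test over the 6 groups gave HMG20B an adjusted p of 0.070 as the only member past 0.05, while the other 8 and 91.1% of all tested genes were called in that test. Its lowest value against siCTL was -0.20 in siCHD4 (adjusted p = 0.011). Over the 5 comparisons the 95% intervals of HMG20B ran from -0.33 to 0.09.

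PHF21A, a PHD finger subunit on the minus strand at chr11:45950870-46143005, had CPM of 48.4 and 47.2 in siCTL, 49.3 and 46.9 in siCARM1, 46.4 and 44.5 in siCHD4, 51.2 and 52.2 in siHDAC2, 48.9 and 49.7 in siGATAD2A, and 53.3 and 53.7 in siKDM1A. The siKDM1A pair was the highest and the siCHD4 pair the lowest. The siKDM1A value was 0.16 on the log2 scale (adjusted p = 0.029) and siCHD4 lay below siKDM1A by 0.24 (adjusted p = 9.1e-04), both under the fold minimum. Intervals against siCTL ran from -0.20 to 0.29.

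REST, the zinc finger repressor on the plus strand at chr4:57774042-57832974, had CPM of 108.9 and 108 in siCTL, 110.1 and 111 in siCARM1, 110.9 and 116 in siCHD4, 122 and 117 in siHDAC2, 100.3 and 103 in siGATAD2A, and 110.6 and 114 in siKDM1A. The siHDAC2 pair was the highest and the siGATAD2A pair the lowest of the 12. Against siCTL the siHDAC2 value was 0.14 (adjusted p = 0.022) and the siGATAD2A value -0.09 (adjusted p = 0.12), with intervals over the 5 comparisons from -0.19 to 0.24. Of the exonic bases of REST 0.861% are shared with NOA1 on the other strand, and of HMG20B 9.57% with MFSD12, so reads there rely on the strand of the library.

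ZMYM2, an MYM-type zinc finger subunit on the plus strand at chr13:20532817-20665968, had CPM of 100.1 and 96.9 in siCTL, 104 and 123 in siCARM1, 115 and 121 in siCHD4, 116 and 108 in siHDAC2, 98.8 and 104 in siGATAD2A, and 114 and 118 in siKDM1A. All but 1 of the 10 knockdown libraries were above both controls. The log2 fold change was 0.26 in siCHD4 (adjusted p = 4.1e-04), just under the fold minimum of 0.263 on that scale, 0.23 in siKDM1A (adjusted p = 0.0025), 0.20 in siCARM1 (adjusted p = 0.0069), 0.19 in siHDAC2 (adjusted p = 0.016) and 0.04 in siGATAD2A (adjusted p = 0.61). Its intervals over the 5 comparisons ran from -0.09 to 0.38.

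Between knockdowns 25 of the 90 values (10 pairs, 9 genes) were called, 27.8%, against 33.9% of all values of the tested genes in those pairs. Without the pairs of siKDM1A for KDM1A itself there were 21. KDM1A and KDM1B were called in 6 pairs each, RCOR2 in 5, RCOR1 and RCOR3 in 4 each, and HMG20B, PHF21A, REST and ZMYM2 in 0 each by edgeR. By pair, siCHD4 with siKDM1A and siGATAD2A with siKDM1A had 4 of 9 called, beside 47.7% and 32.1% of all tested genes. siCARM1 had 3 of 9 called with siCHD4 (47.7% of all), with siGATAD2A (33.8%) and with siKDM1A (21%). With siHDAC2 it had 0 called (19.3% of all). There 2 had an unadjusted p under 0.05, and the share of all tested genes at that p is not given here. The other pairs had 2 of 9 each, siCHD4 with siHDAC2 (48.8%) and with siGATAD2A (44.8%), and siHDAC2 with siGATAD2A (29.5%) and with siKDM1A (14.3%).

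Genes with the most similar patterns were found by the correlation of log2 CPM over the 12 libraries. These points share their libraries and groups, and no test was made. Nearest to KDM1A were SLC39A9 (r = 0.963), MYO7A (r = 0.955) and DPY30 (r = 0.947), whose log2 fold changes in siKDM1A were -0.60, -0.94 and -0.72. For KDM1B they were MST1 (0.968), CRYZL1 (0.964) and EMB (0.961), with siCHD4 values of -0.89, -0.66 and -0.49 and siGATAD2A values of -0.87, -0.53 and -0.34.

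RCOR2 was nearest to TMEM248 (r = 0.976), IRGQ (0.976) and MFSD12 (0.975), which had siCHD4 values of 0.36, 0.61 and 0.75. RCOR3 was nearest to GFPT1 (0.928), SSRP1 (0.927) and PHF10 (0.921), with siKDM1A values of -0.73, -0.37 and -0.40. For RCOR1 they were SLC35B1 (0.959), FAM204A (0.955) and OPTN (0.954). HMG20B was nearest to TBC1D2 (0.918), AP4M1 (0.871) and OTX1 (0.866), and PHF21A to VPS25 (0.937), MEOX1 (0.935) and B4GALNT1 (0.931).

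REST was nearest to FNBP4 (r = 0.916), ZMYND8 (0.914) and ZNF33B (0.913), and ZMYM2 to SLC2A13 (0.942), SLC30A1 (0.928) and NUP88 (0.923). None of the 27 nearest genes was another of the 9. Within the 9 the highest r was 0.87 for KDM1A with RCOR3, both lowest in siKDM1A, and the lowest was -0.83 for KDM1B with RCOR1.

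Among the partners of the complex, HDAC1 was higher in every knockdown. A list of 22 deacetylases, further subunits, corepressors and recruiting factors was written with earlier results of these data known, and 19 of them were tested. GFI1B, INSM1 and TAL1 were below the expression filter. Of their 95 values 24 were called (25.3%), against 31.5% of all values of the tested genes, and 3 of the 24 are of SNAI2, which passed the filter only through siCARM1 and siKDM1A. Among the 19, siCARM1 had 4 higher and 0 lower, beside 14.9% and 14.5% of all tested genes. For siCHD4 it was 4 higher and 2 lower beside 24% and 24.9%, and for siHDAC2 2 and 1 beside 10.6% and 9%. siGATAD2A had 4 higher and 3 lower beside 15.7% and 18.2%, and siKDM1A 3 and 1 beside 14.2% and 11.5%. The counts are small, and medians of the 19 log2 fold changes were -0.005 to 0.051.

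HDAC1 is the deacetylase that sits beside HDAC2 in CoREST. Its CPM was 209.6 and 211 in siCTL and 260.1 to 312 in the 10 knockdown libraries, with no overlap. All comparisons of HDAC1 below share those siCTL libraries, so they are not independent of each other. The log2 fold change was 0.31 in siCHD4, 0.39 in siKDM1A, 0.41 in siCARM1, 0.51 in siGATAD2A and 0.52 in siHDAC2, with adjusted p from edgeR no higher than 8.9e-08. HDAC2 itself was called in siHDAC2 alone, where it was the target and fell by 2.35.

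GFI1, a repressor that recruits KDM1A through its SNAG domain, was called higher in 4 knockdowns, with log2 fold changes of 0.31 in siCARM1, 0.35 in siKDM1A, 0.46 in siCHD4 and 0.53 in siGATAD2A, and was 0.07 in siHDAC2. SNAI2, another SNAG repressor, stood at 0.322 FPKM in siCTL, 0.584 in siCARM1, 0.671 in siKDM1A and 0.104 in siGATAD2A, with log2 fold changes of 0.85, 1.05 and -1.63. Having passed the filter through the groups in which it was high, it had to differ, and these values are a description.

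**Figure D4:**
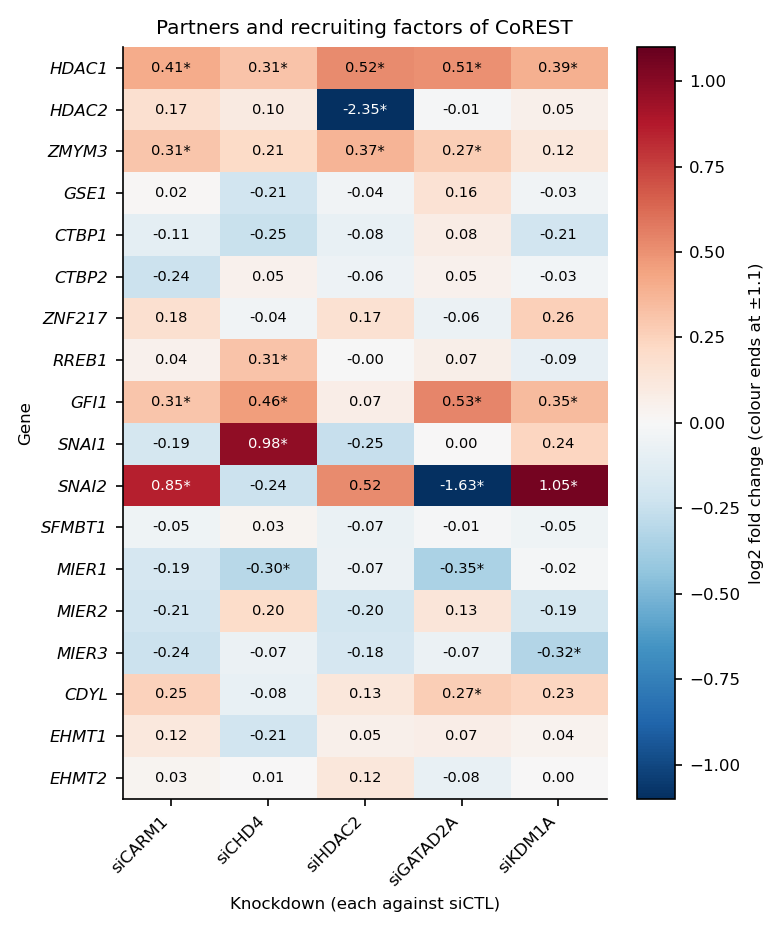
Log2 fold change to siCTL of 18 of the 19 tested partner genes (rows) in the 5 knockdowns (columns), with the value printed in each cell and a star where the gene was called. The HDAC1 row is called higher throughout, from 0.31 to 0.52, and the HDAC2 cell of siHDAC2 at -2.35 is its target and exceeds the colour scale.

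Of 35 values of 7 genes around KDM1B, the flavin cofactor and KDM1A turnover, 4 were called (11.4%), against 31.5% of all values of the tested genes. GLYR1, the nucleosome partner of KDM1B, fell by 0.32 in siCHD4 (adjusted p = 1.3e-07), and NSD3 was not called. RFK, which makes the first step from riboflavin to the cofactor FAD, fell by 0.43 in siHDAC2. JADE2, described as an E3 ligase for KDM1A, fell by 0.27 in siCHD4 and by 0.42 in siGATAD2A. FLAD1, USP7 and USP28, the other genes of cofactor synthesis and KDM1A turnover on the list, were not called.

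Of 40 neuronal genes known as targets of REST, 15 were tested, of which 4 were not above the filter in siCTL and passed it through groups in which they were high, and 1, GRIN1, passed it through siCTL alone. Of the 75 values 37 were called (49.3%), against 31.5% of all values of the tested genes, but the filter favours calls on those 5 genes and nothing is read from that count. REST itself was called in none of the 5. BDNF was higher in all 5 (0.49 to 1.69) and SCAMP5 was lower in all 5 (-1.77 to -0.41), in comparisons that share the siCTL libraries. L1CAM was higher in siCARM1 (0.39), siCHD4 (1.39) and siKDM1A (0.82) and lower in siGATAD2A (-1.13). GRIN1 had values of -1.33 to -0.80, all called. Having passed the filter through siCTL alone, at 0.821 FPKM, it had to be lower in the knockdowns, and these values are a description. Of the exonic bases of BDNF 12.8% are shared with BDNF-AS on the other strand. In siKDM1A BDNF was at 0.93 and SCAMP5 at -0.93, the largest called changes of the list there besides GRIN1 at -1.25, whose calls the filter favours.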

How the data were processed

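RNA-seq counts of 12 libraries labelled HEK293T were used, 2 for each of 6 siRNA groups. What the authors deposited are raw counts for each Ensembl gene, in the 3 columns that STAR writes (unstranded, forward and reverse). The submitters' processing notes name STAR 2.7.10, CASAVA 1.4 and hg19, and the annotation of the counts is not given in the sources used here. The kit was directional, so the reverse-strand column was used, and the opposite column held 7.93% to 8.40% as many counts on genes. The labels name 2 sequencing providers without saying which library went to which. Of 60616 identifiers 58662 matched GENCODE 44 on GRCh37, and the rest held 1.75% to 2.61% of the counts.

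FPKM and CPM were computed here. Coding genes with FPKM above 0.5 in at least 1 group mean (12830) were tested with edgeR 4.0.16 (TMM, quasi-likelihood, 6 group means, R 4.3.3), and p-values were adjusted by Benjamini-Hochberg within each comparison. A call needs a fold of 1.2 and an adjusted p that does not exceed 0.05. The biological coefficient of variation was 3.47%, and TMM factors lay between 0.968 and 1.01. On simulated counts with 200 changed genes of 12830, 193 to 198 were recovered in each of the 5 comparisons, with 3 to 8 false calls. The planted folds were all clearly larger than 1.2 in either direction, and far fewer genes were changed than were called in the data. Recovery near the fold minimum was therefore not tested. DESeq2 1.42.0 and the other alternatives are given in the closing section.

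The members and gene lists were chosen with earlier results of these data known. Named from the lists are genes called in at least 4 of 5 comparisons and the 2 with the largest change in siKDM1A. For each member the 3 tested genes of highest correlation are named. Outside that rule, SNAI2 in other groups, GLYR1, RFK and JADE2 were named after their values were seen. Some genes of the lists are not reported here by name. Levels by canonical transcript length were added after the data were seen.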

Additional observations from a re-analysis of the deposited data

Results flagged for a closer look

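Genes whose libraries lay above siCTL in 1 knockdown and below it in another, with no overlap, and whose 2 knockdowns differed past edgeR's thresholds are given here as log2 differences, the first-named group minus the second. KDM1B differed by 0.55 between siCARM1 and siCHD4, 0.51 between siCARM1 and siGATAD2A, -0.67 between siCHD4 and siKDM1A and -0.63 between siGATAD2A and siKDM1A. RCOR1 differed by -0.27 between siCARM1 and siCHD4, -0.37 between siCARM1 and siGATAD2A, -0.29 between siHDAC2 and siGATAD2A and 0.29 between siGATAD2A and siKDM1A. RCOR2 differed by -1.32 between siCARM1 and siCHD4 and 1.29 between siCHD4 and siHDAC2. KDM1A differed by 0.43 between siCARM1 and siGATAD2A and 0.40 between siCHD4 and siGATAD2A. Pairs with siKDM1A are left out for KDM1A, its target, though siCARM1 and siCHD4 meet the rule there. RCOR3 differed by 0.48 between siCARM1 and siKDM1A, 0.54 between siHDAC2 and siKDM1A and 0.54 between siGATAD2A and siKDM1A. Of the groups in these 15 differences, KDM1B in siCHD4 and siGATAD2A, RCOR2 in siCHD4 and RCOR3 in siKDM1A were called against siCTL, and the others were not. In the pairs of knockdowns 14.3% to 48.8% of all tested genes were called. How many of all tested genes meet the full rule was not counted, so nothing is read from the number of these differences.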

How the results depend on the processing

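For the 45 log2 fold changes 945 alternative values were made. Of these, 919 kept their call or lack of a call, 25 were called where the reported value was not, and 1 was no longer called. Of the 25, 15 came from dropping the fold minimum, with log2 fold changes and p-values as reported. 0 called values turned, but some uncalled values changed sign, such as RCOR2 in siGATAD2A (-0.17 to 0.11). With no fold minimum the calls against siCTL went from 5 to 20 of 45 values, beside 48.3% of all values of the tested genes. They went from 0 to 3 in siCARM1, 2 to 5 in siCHD4, 0 to 3 in siHDAC2, 1 to 3 in siGATAD2A and 2 to 6 in siKDM1A. Calls of the partner genes went from 24 to 49 of 95 values, and those of the genes around KDM1B, FAD and turnover from 4 to 17 of 35. Calls between knockdowns went from 25 to 41. The shares of all tested genes at that rule in each knockdown and between knockdowns are not given here. With all coding genes of at least 1 count, siCARM1 had 1 call, RCOR2 at -0.27.

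Leaving out 1 library at a time gave 4 to 8 calls against siCTL, with 0 to 3 in siCARM1, 2 to 3 in siCHD4, 1 to 2 in siKDM1A, 0 in siHDAC2 and 1 in siGATAD2A each time, 23 to 27 between knockdowns, 22 to 26 of the partner genes, 3 to 8 of the genes around KDM1B, FAD and turnover (8 without siCTL replicate 2) and 32 to 38 of the REST targets. Without siCARM1 replicate 1, RCOR2 (-0.36), HMG20B (-0.32) and ZMYM2 (0.32) were called in siCARM1, and the lone siCARM1 library is then assumed to vary like the other groups. RCOR2 was called there also without siCTL replicate 1 (-0.36) or siGATAD2A replicate 2 (-0.26), and RCOR1 without siCARM1 replicate 2 (-0.27). ZMYM2 in siCHD4 was called at FPKM above 1 (0.27) and without siCTL replicate 1 (0.28) or siCHD4 replicate 1 (0.29). The cause was not tested.

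The difference in the share of KDM1B between siKDM1A and siCTL was 43.0 percentage points by union exon length, 41.4 without regard to strand, 40.4 by CPM and 35.2 by canonical transcript length, and 42.7 to 43.2 with 1 library left out. That of RCOR2 between siCHD4 and siCTL was 13.7, with 8.67 by CPM, 12.4 by canonical length and 12.9 to 14.6 with 1 library left out.

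Whether libraries of the same replicate number were made together is not given. Their deviations from the group means had r of -0.13 to 0.14 over 15 pairs of groups. Of these, 1 was above 0.1 and 1 under -0.1, and such values cannot show whether the numbers pair the samples. With the replicate number as a block there were 5 calls against siCTL, 25 between knockdowns, 24 of the partner genes and 37 of the REST targets, and no count of calls differed from the fit without the block. With 2 libraries a group and 225 to 5522 counts per gene and library, changes near the fold minimum of 1.2 are the limit of what is called.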
